A study of Arabidopsis thaliana with 28 samples.

Results

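In seedlings of Arabidopsis thaliana, 61 genes were lower under abscisic acid (ABA) than under the mock at 0.5 and 1 h and met a looser limit, given below, from 9 h on. ABA is the plant hormone of drought and seed dormancy, and it is sensed by PYR/PYL receptors. Bound receptors inhibit PP2C phosphatases, which releases SnRK2 kinases to phosphorylate transcription factors and channels. The best known targets of this pathway are genes that go up, while the genes described here were lower under ABA first. Wild-type Col-0 seedlings were treated with ABA or with ethanol as the mock and sampled after 0.5, 1, 3, 6, 9, 12 and 24 h. Each of the 14 groups had 2 RNA libraries, and all groups share the wild-type background. The sources used here give neither the dose of ABA nor how old the plants were.

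The members were chosen from the deposited values themselves. The effect at a time is log2((ABA + 1)/(mock + 1)), with both levels in FPKM, fragments scaled to transcript length and to library size. A member had a mean of at least 2 FPKM over the 14 groups, an effect of -0.8 or lower at 0.5 and at 1 h, and an effect above -0.4 at 9, 12 and 24 h. Of 33557 entries, 17584 passed the mean limit, and these are called the tested genes. Of the tested genes, 3.56% were at or below -0.8 at 0.5 h and 4.45% at 1 h. At both times 388 were, and 61 of those met the late limits. The other 327 of the 388 failed a late limit, and 154 genes were at or below -0.8 at all 7 times. The same rule with the signs turned, applied to higher genes, gave 78 genes. A further 8 entries met the effect limits and fell under the mean limit.

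Each gene has 1 pooled value per group in the deposited table, which the authors made from both libraries. No value below therefore has a replicate error, and no test between pools could be run on it. The authors' deposited table also holds a yes or no call of significance at each time, and the sources used here do not name its test or threshold. "Lower" and "higher" beside an effect describe pooled values, and "called" refers to those yes or no calls. The values at 0.5, 1, 9, 12 and 24 h chose the members and are a description. The pools of 3 h and 6 h entered the choice only through the mean level. In whole seedlings, fewer cells of a type and less RNA per cell cannot be told apart. Green-tissue markers were high in every pool (RBCS1A 9218 to 22210.5 FPKM), the root-hair gene EXPA7 stood between 10.5 and 36.1 FPKM, and the guard-cell factor MYB60 stood between 4.36 and 17.4 FPKM. The 5 root markers differed at the early times and also later. At 0.5, 1, 3, 6 and 9 h the authors' deposited table calls 4 of them higher and IRT1 lower. At 12 h that table calls 1 higher and 1 lower, and at 24 h 3 higher and 0 lower. The root markers' median effect was 0.81 and 0.83 at 0.5 and 1 h. It was 1.11, 0.86, 1.28, 0.38 and 0.79 from 3 to 24 h. Their summed level was 181 and 190.2 FPKM in the early mock pools and 245 and 273 FPKM in the early ABA pools. It stood between 45.1 and 149.9 FPKM in the later mock pools and between 78.3 and 174 FPKM in the later ABA pools, and no root marker was at 0 in any pool. The 4 green-tissue markers had a median effect of -0.08 and -0.03 at 0.5 and 1 h. It was -0.18, -0.22, -0.19, 0.65 and 0.38 from 3 to 24 h. The authors' deposited table calls 3 of the green-tissue markers higher at 12 h and 2 at 24 h. Their summed level at 12 h was 23582 FPKM in the mock pool and 34737 FPKM in the ABA pool. The part of these markers in the members' values was not tested.

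Of the 61 members, 60 matched the TAIR10.1 annotation, and all 60 are protein-coding. They lie on chromosome 1 (18 genes), chromosome 2 (9), chromosome 3 (8), chromosome 4 (11) and chromosome 5 (14). The entry ATCG01020 was not matched and is given by its identifier. The members' mean level ran from 2.26 to 141 FPKM with a median of 14.7 FPKM, beside a median of 15.4 FPKM over the tested genes.

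The bases just upstream of 4 members are shown because these genes took different courses, described below. They include a transcriptional repressor whose mock and ABA levels were close from 3 h on, and a shade regulator whose level became low in both treatments. The others are an F-box gene still lower under ABA at 3 h, and a hypoxia gene that went above the mock. TEM1 is a RAV-type repressor of the florigen gene FT. PAR1 is an atypical bHLH protein of the shade response. KMD1 is a kelch F-box protein that targets type-B response regulators of cytokinin signalling for degradation. HRU1 is a universal stress protein induced by low oxygen. Each line gives the 250 bases before the annotated transcript start, read 5′ to 3′ on the gene's strand from TAIR10.1 (RefSeq). Capitals mark the ABA-response element core ACGTG and the W-box core TTGAC on either strand. The windows are chr1:8983315-8983564 (minus strand) for TEM1, chr2:17837619-17837868 (minus) for PAR1, chr1:30241202-30241451 (plus) for KMD1 and chr3:763370-763619 (minus) for HRU1, and none of them overlaps another annotated gene.
TEM1: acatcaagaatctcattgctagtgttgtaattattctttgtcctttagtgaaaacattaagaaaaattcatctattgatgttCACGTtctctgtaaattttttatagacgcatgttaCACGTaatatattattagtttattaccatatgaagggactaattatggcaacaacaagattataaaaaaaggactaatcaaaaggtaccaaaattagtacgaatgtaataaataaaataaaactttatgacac
PAR1: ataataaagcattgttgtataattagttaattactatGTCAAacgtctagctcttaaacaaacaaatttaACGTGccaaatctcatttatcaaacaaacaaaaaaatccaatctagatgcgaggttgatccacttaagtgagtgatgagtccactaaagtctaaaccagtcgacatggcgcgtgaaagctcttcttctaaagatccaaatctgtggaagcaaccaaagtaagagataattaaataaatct
KMD1: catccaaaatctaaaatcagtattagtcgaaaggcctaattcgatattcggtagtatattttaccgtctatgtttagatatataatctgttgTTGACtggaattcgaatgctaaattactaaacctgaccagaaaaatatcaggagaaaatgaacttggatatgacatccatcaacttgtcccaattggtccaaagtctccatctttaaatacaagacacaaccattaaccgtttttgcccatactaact
HRU1: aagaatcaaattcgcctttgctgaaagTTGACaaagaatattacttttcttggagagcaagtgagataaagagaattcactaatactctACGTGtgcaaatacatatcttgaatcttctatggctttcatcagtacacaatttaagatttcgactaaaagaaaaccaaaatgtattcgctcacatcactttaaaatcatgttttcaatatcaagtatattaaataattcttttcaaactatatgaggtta

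The ABA-response core occurred 2 times upstream of TEM1, 1 time each upstream of PAR1 and HRU1, and not upstream of KMD1. The W-box core occurred 1 time each upstream of PAR1, KMD1 and HRU1. Over the 60 windows of the members, 17 (28.3%) held ACGTG, beside 24.4% of the windows of tested genes. TTGAC was found in 30 windows (50.0%), beside 44.7%. The G-box CACGTG, which contains the ABA-response core, was in 2 windows (3.33%, beside 7.77%), and the auxin-response element TGTCTC was in 2 (3.33%, beside 10.6%). The remaining motifs searched on both strands were the drought-response core CCGAC (5 windows, 8.33% beside 13.3%), the GCC box GCCGCC (1 window, 1.67% beside 1.93%), CGCGTT (3 windows, 5% beside 2.73%), the evening element AAATATCT (3 windows, 5% beside 5.06%) and the telo box AAACCCTA (3 windows, 5% beside 3.5%). These matches describe letters in these windows only. Of the 60 windows, 51 overlap no other annotated gene.

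The members' median effect was -1.15 at 0.5 h and -1.19 at 1 h, the values the choice fixed. It stood at -0.01 at 3 h, -0.03 at 6 h, 0.05 at 9 h, 0.12 at 12 h and 0.09 at 24 h. Over all tested genes the median effect lay between -0.03 and 0.04 at every time. In 36 of the 61 members the effect was lower at 1 h than at 0.5 h. The authors' deposited table calls 57 of the 61 lower at 0.5 h, where it calls 12.1% of the tested genes lower. At 1 h the authors' deposited table calls 56 members and 10.7% of the tested genes lower, and 55 members are called at both times. The share of tested genes called lower at both times was not counted. The members without a lower call at 0.5 h in the authors' deposited table were KMD3, ATCG01020, AT5G63270 and AT1G69325.

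**Figure D1:**
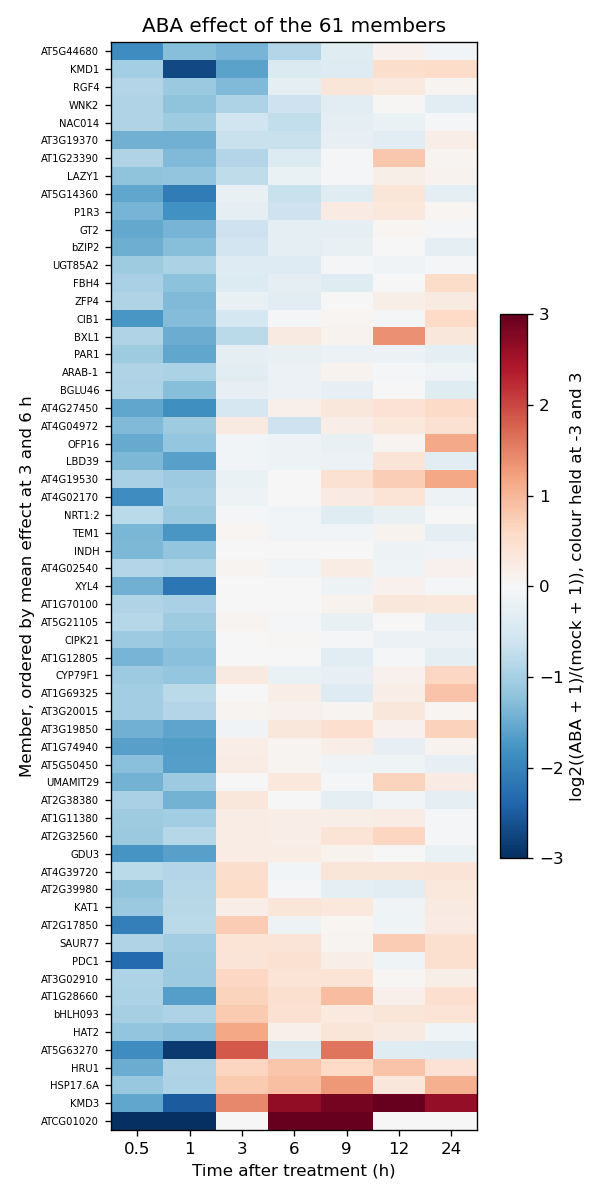
ABA effect, log2((ABA + 1)/(mock + 1)), of each of the 61 members (rows) at the 7 times (columns), in a colour scale from lower (blue) to higher (red) under ABA. All members are low at 0.5 and 1 h by the rule, and at 3 h and 6 h most cells of the map are pale, with 6 members at or below -0.8 at 3 h and 1 at 6 h.

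Near the limits the order of genes was dense. Just inside -0.8 stood NRT1:2 (effect -0.81 at 0.5 h), AT4G39720 (-0.81 at 0.5 h) and AT2G17850 (-0.81 at 1 h). Just outside stood AT3G06880 (-0.80 at 1 h), FP3 (-0.80) and AT1G48325 (-0.79). At the late limit, AT5G63270, AT1G69325 and KMD1 were just inside, each with a lowest late effect of -0.39. EXL3 (-0.40), PAL3 (-0.41) and AT1G15670 (KMD2, -0.41) were just outside.

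Roles were given to 38 of the 61 members after their values were seen, and 23 have none. Regulators of transcription were the largest named role, with 12 members. The share of such regulators among the tested genes was not counted, nor that of any other role except the hypoxia-responsive genes. The counts by role therefore describe the members only. The median effect of the 12 was -1.27 at 0.5 h, -1.30 at 1 h, -0.28 at 3 h and -0.24 at 6 h. bZIP2 (AT2G18160, chr2:7898012-7899242, minus strand) is a bZIP factor of the S1 group, which acts in low-energy signalling. Its mock level was 264, 215, 171, 139, 136, 135 and 139 FPKM from 0.5 to 24 h. Its ABA level was 95.3, 88.1, 116, 113, 118, 133 and 114 FPKM. The mock pools were highest early, the ABA pools stayed between 88.1 and 133 FPKM, and the effects went from -1.46 and -1.28 to -0.56, -0.30, -0.21, -0.01 and -0.29. The authors' deposited table calls bZIP2 lower at 0.5, 1 and 3 h and at no later time.

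TEM1 (AT1G25560, chr1:8981556-8983314, minus strand), whose upstream bases are given above, had mock levels of 164, 281, 100.3, 104, 98.7, 80.3 and 93.5 FPKM. Under ABA it had 62.4, 83.1, 104, 97.2, 93.0, 87.1 and 76.2 FPKM. The mock peak at 1 h had no counterpart under ABA, and from 3 h on the pools of both treatments covered overlapping ranges. The effects were -1.38, -1.74, 0.05, -0.09, -0.09, 0.12 and -0.29, and the authors' deposited table calls only the first 2 times. LBD39 (AT4G37540, chr4:17639393-17640925, minus strand), a nitrate-induced repressor of nitrogen-responsive genes, had 197 and 113 FPKM in the early mock pools and 76.2 and 35.8 FPKM in the early ABA pools. From 3 h its mock pools read 102, 102, 117, 108 and 148 FPKM and its ABA pools 96.8, 91.4, 102, 142 and 117 FPKM. The authors' deposited table calls LBD39 lower at 0.5 and 1 h and higher at 12 h (effect 0.39).

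PAR1 (AT2G42870, chr2:17836416-17837618, minus strand) took another course. Its mock level went from 44.9 and 30.8 FPKM to 6.27, 6.64, 6.10, 7.45 and 7.26 FPKM. Its ABA level went from 20.7 and 9.73 FPKM to 5.03, 5.54, 5.27, 6.46 and 5.75 FPKM. Both treatments were thus far lower after 1 h, and the effects of -1.08 and -1.57 became -0.27, -0.22, -0.18, -0.18 and -0.29. P1R3, an atypical bHLH factor by its annotation note, had 45.4 and 25.5 FPKM in the early mock pools and 16.6 and 6.50 FPKM in the early ABA pools. From 3 h on its mock pools stood between 1.77 and 3.87 FPKM and its ABA pools between 2.097 and 3.34 FPKM.

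HAT2 (AT5G47370), an auxin-induced HD-Zip II factor, had mock levels of 36.4, 43.6, 18.8, 15.7, 13.6, 11.7 and 15.7 FPKM. Its ABA levels were 15.3, 17.6, 43.3, 17.5, 17.6, 14.3 and 14.3 FPKM. The ABA pool of 3 h stood apart from the others, and the effect there was 1.16. The authors' deposited table calls HAT2 lower at 0.5 and 1 h and higher at 3 h. FBH4 (AT2G42280, chr2:17611185-17613660, minus strand) is a bHLH factor that activates the flowering gene CONSTANS and, under the name AKS3, belongs to the ABA-responsive kinase substrates that promote KAT1 expression in guard cells. Its mock pools read 9.71, 12.7, 16.7, 18.0, 18.0, 20.5 and 14.7 FPKM and its ABA pools 4.50, 4.85, 12.4, 14.6, 13.8, 20.6 and 22.1 FPKM. Here the level was lowest early in both treatments. The authors' deposited table calls FBH4 lower at 0.5 and 1 h and higher at 24 h (effect 0.56). FBH4 overlaps AT2G09350 by 681 bases and AT2G42270 by 149 bases, both on the opposite strand. Strandedness of the libraries is not stated, so the FBH4 values are uncertain. With upper-quartile scaling FBH4 was no longer a member. CIB1, a bHLH partner of the blue-light receptor CRY2, had early effects of -1.75 and -1.29 and effects between -0.52 and 0.60 afterwards. GT2, a trihelix factor, had early effects of -1.52 and -1.40 and -0.61 at 3 h, where the authors' deposited table still calls it lower. bHLH093 had effects of -0.99 and -0.92 early and 0.78 at 3 h, with a higher call in the authors' deposited table.

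There were 4 members that are F-box proteins, the subunits that select targets for ubiquitin ligases. KMD1 (AT1G80440, chr1:30241452-30243176, plus strand) had mock levels of 78.6, 105, 27.99, 19.7, 21.2, 19.1 and 21.7 FPKM. Under ABA it had 38.1, 15.1, 8.51, 14.4, 16.0, 27.97 and 32.5 FPKM. The ABA pools were the lower ones up to 9 h and the higher ones at 12 and 24 h. The effects were -1.03, -2.71, -1.61, -0.43, -0.39, 0.52 and 0.56, and the authors' deposited table calls KMD1 lower at the first 4 times and higher at the last 2. With other scalings its 9 h effect crossed the late limit. AT1G23390, a kelch F-box protein that targets chalcone synthase, had effects of -0.91, -1.33, -0.88, -0.41, -0.06, 0.81 and 0.07. The authors' deposited table calls AT1G23390 lower at the first 4 times and higher at 12 h. AT2G32560 had 87.4 and 57.5 FPKM in the early mock pools, 40.1 and 31.5 FPKM in the early ABA pools, and effects between -0.03 and 0.65 from 3 h on.

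KMD3 (AT2G44130, chr2:18253610-18255054, plus strand) had mock levels of 16.0, 29.2, 5.60, 1.58, 1.67, 0.847 and 2.89 FPKM. Its ABA levels were 4.78, 4.34, 17.0, 15.2, 18.4, 25.4 and 23.3 FPKM. The pools of the treatments did not overlap at any time from 3 h on, with ABA above. The effects were -1.55, -2.50, 1.44, 2.65, 2.86, 3.83 and 2.65. The authors' deposited table calls KMD3 lower at 1 h and higher at 3, 9 and 24 h, with no call at 0.5, 6 or 12 h. KMD3 lies wholly within exons of AT2G44140 on the opposite strand, and strandedness of the libraries is not stated, so its reads cannot be told apart from those of AT2G44140. That gene had effects of -0.15, -0.22, 0.73, 0.81, 0.63, 0.67 and 0.25 at a mean of 15.4 FPKM.

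**Figure D2:**
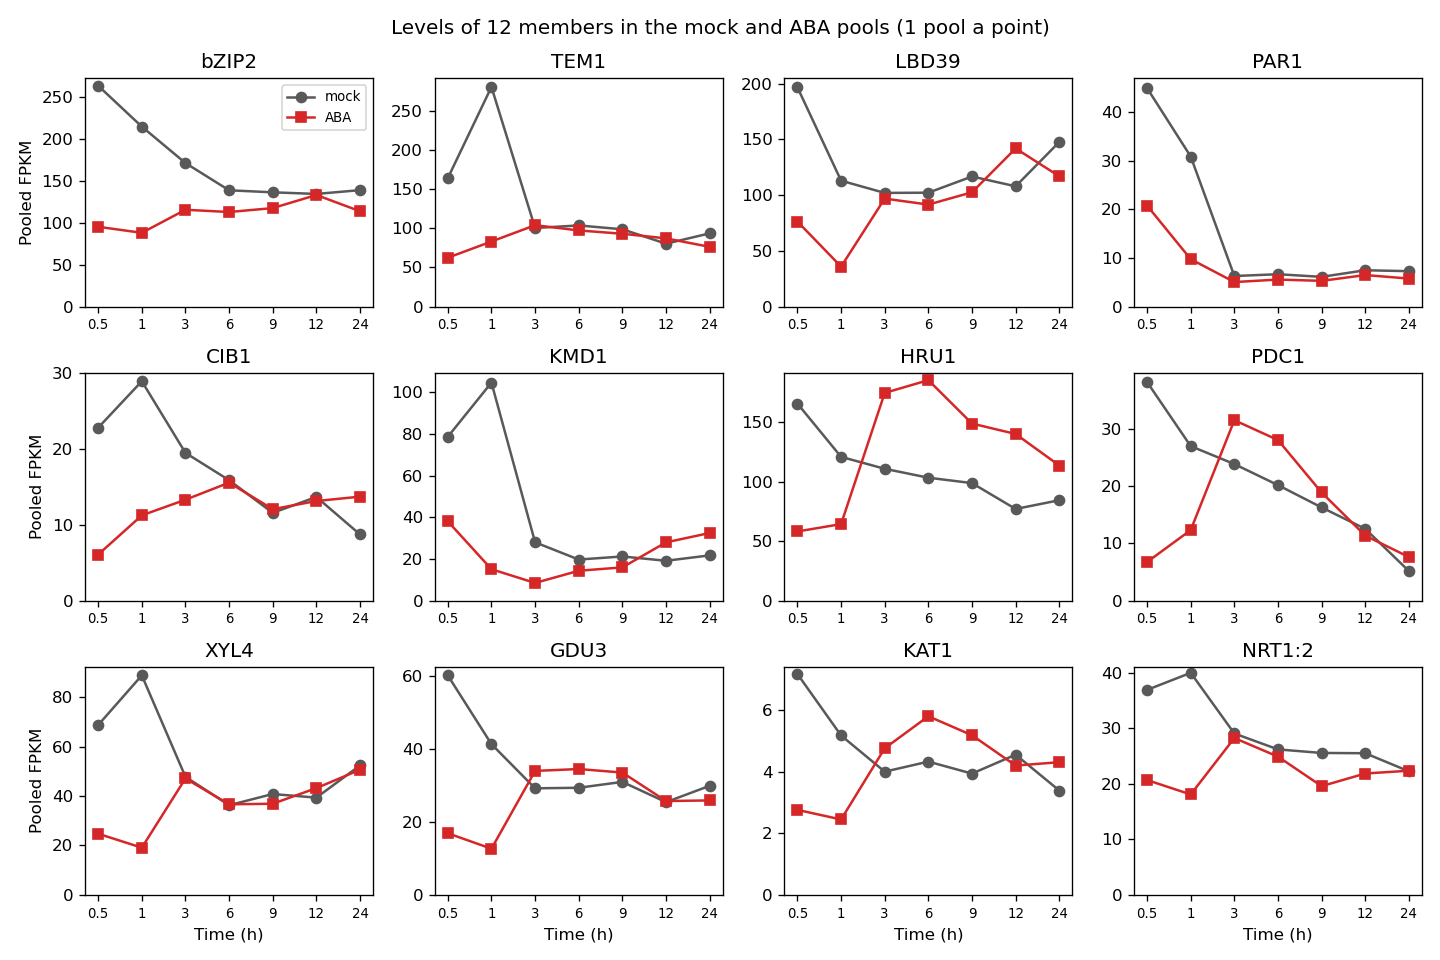
Pooled FPKM (linear axes from 0) of 12 members at 7 times in the mock and ABA pools, with 1 point per group and no error bar because each group has 1 pooled value. The ABA points lie below the mock points at 0.5 and 1 h and come close to them or cross them later.

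There were 5 members on a list of hypoxia-responsive genes, which serve fermentation and low-oxygen signalling. HRU1 (AT3G03270, chr3:761004-763369, minus strand) had mock levels of 166, 121, 111, 103, 98.9, 77.1 and 84.5 FPKM. Under ABA it had 58.2, 64.4, 175, 185, 149, 140.2 and 114 FPKM. It was lower under ABA at 0.5 and 1 h and higher at each later time, with effects of -1.49, -0.90, 0.65, 0.84, 0.59, 0.85 and 0.42, and all 7 carry a call in the authors' deposited table. PDC1 (AT4G33070, chr4:15952257-15954803, minus strand), a pyruvate decarboxylase of ethanol fermentation, had mock levels of 38.1, 26.96, 23.8, 20.2, 16.3, 12.5 and 5.17 FPKM. Under ABA it had 6.74, 12.3, 31.5, 28.02, 18.9, 11.4 and 7.61 FPKM. The mock pools were lower at each successive time, whereas the ABA pools peaked at 3 h. The authors' deposited table calls PDC1 lower at 0.5 and 1 h (effects -2.34 and -1.07) and higher at 3, 6 and 24 h (0.39, 0.46 and 0.48). AT4G27450 had effects of -1.55 and -1.85 early, -0.51 at 3 h, and 0.16 to 0.58 from 6 h on, and the authors' deposited table calls it lower at the first 3 times and higher at 12 and 24 h. AT1G74940 had -1.62 and -1.67 early and between -0.24 and 0.19 later. AT2G17850 had -2.06 and -0.81 early.

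The list these 5 came from has 50 genes, of which 45 were tested. At 0.5 h the authors' deposited table has a lower call for 28 of the 45 and a higher call for 1, beside 12.1% and 10.8% of the tested genes. At 1 h the authors' deposited table has these calls for 34 and 0, beside 10.7% and 16.4%. At 3 h the authors' deposited table calls 20 of them lower (44.4%) and 9 higher (20%), beside 21.2% and 26.5% of the tested genes. At 24 h the authors' deposited table calls 18 lower (40%) and 10 higher (22.2%), beside 20.1% and 20.4%. The list's median effect was -0.88, -0.90, -0.39, -0.45, -0.44, -0.49 and -0.25 at the 7 times. The list's median thus stayed below 0 at every time. Of its 45 tested genes, 19 were at or below -0.8 at both early times, beside 388 of the 17584 tested genes. The late limits were met by 5 of those 19, beside 61 of those 388. ADH1, the alcohol dehydrogenase that follows PDC1 in fermentation, is not a member because it was 134 and 91.5 FPKM in the early mock pools against 19.6 and 54.5 FPKM under ABA, an effect above -0.8 at 1 h. From 3 h on its ABA pools read 481, 437, 237, 206 and 116 FPKM, beside 63.6, 48.1, 49.9, 36.1 and 31.6 FPKM in the mock.

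Transport genes included the guard-cell channel KAT1 (AT5G46240, chr5:18743510-18747406, minus strand), which carries potassium into the cell when stomata open. Its mock pools read 7.17, 5.17, 4, 4.33, 3.94, 4.55 and 3.39 FPKM. Its ABA pools read 2.76, 2.45, 4.76, 5.80, 5.18, 4.20 and 4.31 FPKM. Only the first 2 ABA pools lay under all mock pools, and the authors' deposited table calls KAT1 at those 2 times alone (effects -1.12 and -0.84). The 3 guard-cell markers summed to 26.9 and 26.1 FPKM in the early mock pools and to 22.7 and 20.9 FPKM in the early ABA pools. Their median effect was -0.05 and -0.25 at 0.5 and 1 h. Of the 3, the authors' deposited table calls only MYB60 lower at 0.5 h and none at 1 h. Later these markers summed to 26.8 to 32.3 FPKM under the mock and 13.8 to 18.3 FPKM under ABA, with median effects between -0.58 and -0.38. The part of the guard-cell markers in the KAT1 values was not tested. NRT1:2 (AT1G69850), a transporter that imports nitrate and ABA, had early effects of -0.81 and -1.10 and later effects between -0.37 and 0.01. GDU3, which promotes amino acid export, had 60.3 and 41.4 FPKM early in the mock against 16.9 and 12.7 FPKM under ABA. From 3 h on GDU3 stood between 25.5 and 34.6 FPKM in every pool. UMAMIT29, an amino acid exporter, had early effects of -1.42 and -1.09 at levels under 5 FPKM.

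Of the kinases, CIPK21, a partner of calcium-binding CBL proteins, had effects of -1.08 and -1.19 and then between -0.17 and 0.04. WNK2 had -0.90, -1.21, -0.94 and -0.61 at the first 4 times, and the authors' deposited table calls all 4 lower. Of the wall enzymes, BXL1 (AT5G49360), a beta-xylosidase, had mock levels of 295, 303, 80.5, 47.0, 56.9, 49.7 and 117 FPKM. Its ABA levels were 158, 107, 45.6, 57.0, 61.5, 131 and 147 FPKM. BXL1 was the higher of the treatments under ABA at 12 h (effect 1.38), where the authors' deposited table calls it higher. XYL4, another beta-xylosidase, had effects of -1.44 and -2.16 and then between -0.14 and 0.13. Its exons overlap those of AT5G64572 on the other strand, which had early effects of -1.27 and -1.46. Strandedness of the libraries is not stated, so the XYL4 values are uncertain. Among genes of growth and tropism, LAZY1, which sets the gravitropic angle of shoots, had -1.20, -1.19 and -0.75 at the first 3 times. RGF4, a root growth peptide gene, had -0.89, -1.11 and -1.33. AT5G44680 had the lowest 6 h effect, with -1.86, -1.28, -1.40 and -0.88 at the first 4 times.

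At 3 h and 6 h, the times the effect limits did not use, 47 and 51 of the 61 members had effects above -0.4. These are 77.0% and 83.6% of the members, beside 76.4% and 75.4% of the tested genes. At or below -0.8 stood 6 members at 3 h and 1 at 6 h, beside 9.91% and 11.0% of the tested genes. At or above 0.8 stood 3 at 3 h and 4 at 6 h, beside 15.4% and 13.0%. The authors' deposited table calls 13 members lower and 9 higher at 3 h, where it calls 21.2% of the tested genes lower and 26.5% higher. At 6 h the authors' deposited table calls 7 lower and 6 higher, with 22.1% and 24.1% of the tested genes. The members' counts at 3 h were 13 of 61 and 9 of 61, so the lower share was near the background and the higher share was under it.

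The 7 members called lower at both 3 and 6 h in the authors' deposited table were KMD1, AT1G23390, UGT85A2, AT5G44680, WNK2, AT3G19370 and NAC014. The 6 called higher at both times in the authors' deposited table were HRU1, PDC1, AT3G02910, AT1G28660, bHLH093 and HSP17.6A. HSP17.6A, a small heat-shock chaperone, stood at 2.53 and 2.57 FPKM in the early mock pools and 0.594 and 0.881 FPKM under ABA. Its later mock pools read 12.7, 9.00, 8.78, 8.98 and 1.38 FPKM and its later ABA pools 22.8, 17.7, 23.3, 11.5 and 3.98 FPKM. From 9 h on, the authors' deposited table has no lower call for any member, and it has one for 19.3%, 18.4% and 20.1% of the tested genes at 9, 12 and 24 h. The choice of members used those values. The authors' deposited table calls 8, 10 and 13 members higher at those times, beside 18.7%, 20.2% and 20.4% of the tested genes. Across the late times, the authors' deposited table gives 20 members a higher call at least at 1 time, and HRU1 and AT4G19530 carry it at all of them. From 3 h to 24 h, 30 members carry no call at any time in the authors' deposited table. Shares of tested genes with calls combined over several times were not counted. The combined counts in this paragraph therefore describe the members only.

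The levels behind the early and late effects are described next, with no test, because the same pools chose the members. For each member, the mean log2(FPKM + 1) of 9, 12 and 24 h was set against that of 0.5 and 1 h. The median difference, late minus early, was -0.83 in the mock and 0.54 under ABA. The limits require the ABA difference to exceed the mock difference, and it did so by 0.76 to 8.23, with a median of 1.32. The mock level was lower late by at least 0.8 in 32 members (52.5%), beside 9.62% of the tested genes. The ABA level was higher late by at least 0.8 in 21 members (34.4%), beside 6.01% of the tested genes. In the other 327 genes low at both early times, these shares were 31.5% in the mock and 11.9% under ABA. In the genes at or below -0.8 at all 7 times they were 29.9% and 3.25%. A mock level lower late was thus also frequent in early-low genes outside the members. Among the members the counts divided as follows. Both held in 5 members, the mock alone in 27, ABA alone in 16 and neither in 13. Over the 17584 tested genes the same counts were 72, 1620, 985 and 14907. The highest of the 7 mock pools was at 0.5 or 1 h in 52 of the 61, beside 41.3% of the tested genes. The lowest of the 7 ABA pools was there in 42, beside 41.6%.

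The named genes differed in this. BXL1, KMD1, PAR1, TEM1 and PDC1 were lower late in the mock by at least 0.8, with log2 differences of -2.09, -2.08, -2.27, -1.24 and -1.55 in the order given. bZIP2 met neither limit, with -0.797 in the mock and 0.40 under ABA. LBD39, HRU1, FBH4, AT1G74940 and AT2G38380, a peroxidase gene by its annotation, were higher late under ABA, with log2 differences of 1.17, 1.11, 1.78, 1.69 and 1.12. PAR1, P1R3, AT4G02540 and AT4G02170 were lower late by at least 0.8 in both treatments.

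**Figure D3:**
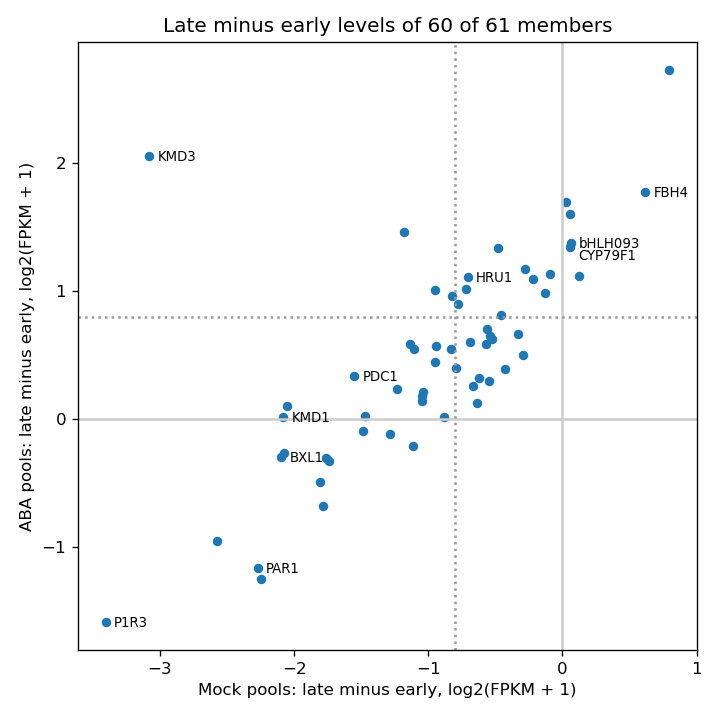
Late minus early difference in mean log2(FPKM + 1) for each member, mock on the horizontal axis and ABA on the vertical axis, with lines at the 0.8 limits. Points to the left (32 members at or below -0.8 in the mock) and at the top (21 at or above 0.8 under ABA) are the members past each limit, and ATCG01020 lies outside the plotted range.

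TEM2, PAR2, HAT1 and LBD38, relatives of members, were lower under ABA at all 7 times. TEM2, the RAV repressor most like TEM1, had mock levels of 156, 266, 87.7, 84.8, 79.0, 62.4 and 62.2 FPKM. Under ABA TEM2 had 96.4, 31.6, 11.4, 12.3, 16.9, 16.4 and 18.8 FPKM. Its effects were -0.69, -3.04, -2.84, -2.69, -2.16, -1.87 and -1.67, beside TEM1 effects near 0 from 3 h on. PAR2 had effects of -1.46, -1.53, -1.42, -1.31, -0.65, -1.34 and -1.12, while PAR1 was between -0.27 and -0.18 from 3 to 12 h. HAT1 had -1.49 and -2.08 early and between -1.07 and -0.84 later. LBD38 had -1.11 and -2.17 early and between -1.52 and -0.98 later, and LBD37 had -0.33 and -0.68 early and between 0.14 and 0.57 later. No test of the difference between relatives could be run on pooled values.

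The F-box and bHLH families divided further. KMD2 had effects of -1.21, -1.30, -0.52, -0.56, -0.41, -0.25 and 0.11, and missed the choice at 9 h by the narrow margin given above. KMD4 had -0.62 and -0.84 early and between 0.95 and 1.56 later. FBH3 (AKS1) was higher at every time, from 1.69 at 0.5 h to 4.34 at 3 h and 2.61 at 24 h, while FBH4 was at or below -0.96 early. FBH1 and FBH2 had early effects between -0.28 and -0.02. KAT2, the channel most like KAT1, had -0.76, -1.23, -0.74 and -0.77 at the first 4 times and between -0.34 and -0.20 later, at a mean of 2.11 FPKM.

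**Figure D4:**
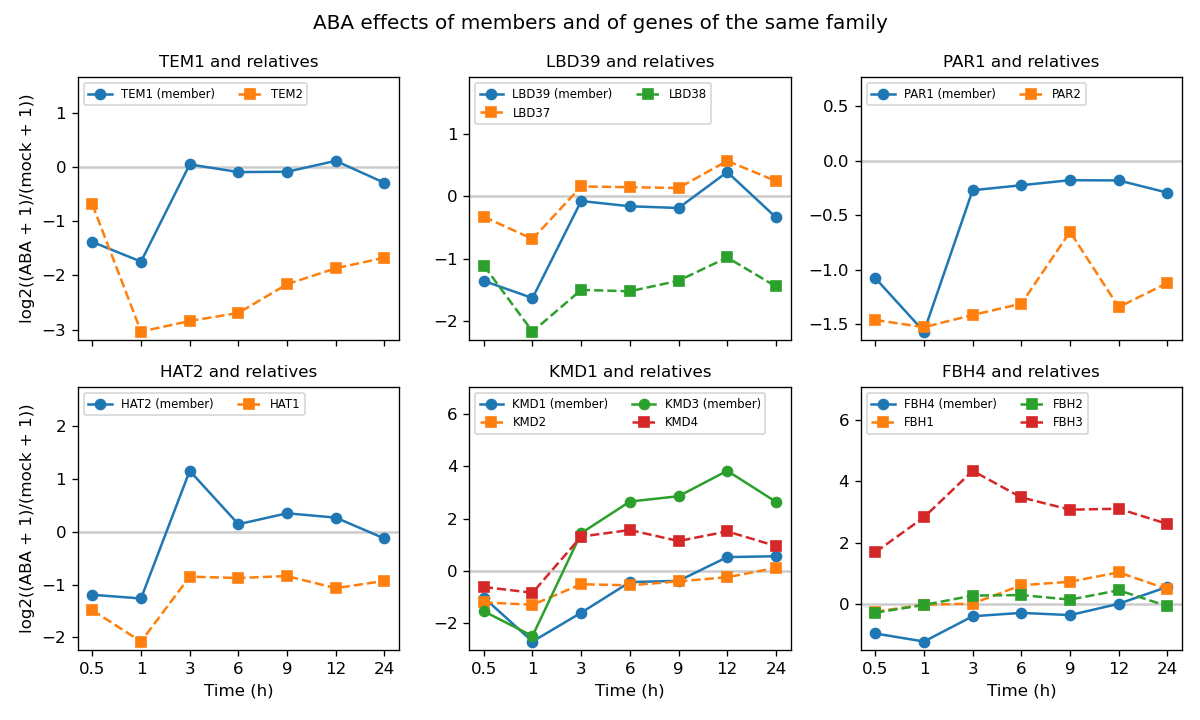
ABA effect, log2((ABA + 1)/(mock + 1)), at 7 times for members (solid lines, circles) and genes of the same family (dashed lines, squares), with a grey line at 0. TEM1, PAR1 and HAT2 lie near or above 0 from 3 h on, while TEM2, PAR2 and HAT1 stay below -0.6 at every later time.

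Some features that the choice did not use were shared by part of the members. Of the 60 annotated members, 17 (28.3%) have a single exon, beside 15.5% of the tested genes. The median transcript length was 1671.5 bases, beside 1712 bases. AT1G28660 and ARAB-1, annotated as lipases, are neighbours and 90.4% identical over 1524 bases, so reads could be divided between them. Their early effects were -0.94 and -1.64, and -0.90 and -0.95. At 3 h AT1G28660 stood at 0.67 and ARAB-1 at -0.32. AT4G19530 and INDH, neighbours on chromosome 4, had early effects of -0.97 and -1.09, and of -1.36 and -1.19, and differed at 24 h (1.16 and -0.11). In all, 15 members overlap another annotated gene. Values of those with the overlap on the opposite strand, GT2, INDH, LAZY1 and XYL4 among them, are uncertain because strandedness is not stated. CIB1 shares 1311 exonic bases with AT4G34540 on the same strand, and CIPK21 has a 98.8% identical stretch of 255 bases in AT5G57565, so these values are uncertain.

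Genes outside the members whose 7 effects followed the members' median most closely were sought by Pearson's r over the 7 times. The closest 5, with r between 0.990 and 0.994, were SKIP16, PELPK1, LTP4, AT3G45680 and AT5G60160. None of them was lower under ABA at 0.5 or 1 h. LTP4, a lipid transfer protein, had effects of 3.49 and 4.09 early and 9.90 at 3 h, so the likeness is one of form and not of level.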

How the data were processed

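RNA of Col-0 seedlings was sequenced in 28 libraries, 2 for each of 14 groups (ABA or ethanol mock at 7 times). Per the submitters' processing notes, the authors used FastQC, STAR and TAIR10, with no versions given. How the 2 libraries were combined, the quantifier and the test behind the calls are not stated there. The deposited values are 1 FPKM per gene and group; this unit was inferred from the values. The authors' calls of significance were copied from the authors' deposited table. Nothing says that the libraries of a group are separate cultures.

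Effects are log2((ABA + 1)/(mock + 1)); the pseudocount of 1 makes differences of low genes smaller than their ratios. Low values showed no clear step of a single fragment (the most frequent bin of value times effective length held 2.40% to 4.38% of low values in a pool), so the depth is unknown and no count test, interval or floor could be given. Members, lists, roles and named genes were chosen with earlier results of these data known. Named genes were those with the lowest early effects (15), the highest and lowest effects at 3 and 6 h (5 each), the 5 most abundant, list members and genes at the limits; others were chosen after their values were seen. Names, overlaps and upstream bases came from TAIR10.1, which matched 32813 of 33557 entries; near-copies were sought with blastn 2.17.0. Python 3.11.15, numpy 2.4.6 and pandas 2.3.3 were used. The rule was tried on simulated data, where the lowered genes had levels above the members' median and effects well past the early limit. That run cannot speak for members of low level or near a limit.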

Additional observations from a re-analysis of the deposited data

Results flagged for a closer look

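In 5 members the authors' deposited table calls the level lower under ABA at 0.5 and 1 h and higher at 3 and 6 h, so their effects at these times point in opposite directions. At 3 h the effect was 0.65 for HRU1, 0.39 for PDC1, 0.67 for AT1G28660, 0.63 for AT3G02910 and 0.78 for bHLH093. The difference between the times was not tested, since each group has 1 pooled value. How many tested genes carry this set of calls was not counted. AT3G02910 lies opposite an annotated antisense gene, and AT1G28660 is 90.4% identical to its neighbour ARAB-1 over 1524 bases.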

How the results depend on the processing

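The number of members was 61 as reported. It was 80 and 71 with pseudocounts of 0.1 and 0.5, 67 and 70 with median-ratio and upper-quartile scaling, 63 and 52 with a mean of at least 1 and 5 FPKM, and 62 with the 24 h trend on transcript length removed. Of the 61, 57, 58, 58, 54, 61, 52 and 58 stayed members in the same order, and KMD1 left with the pseudocount of 0.1 and with both scalings. Upper-quartile scaling shifted the median of all tested genes by -0.11 at 1 h, -0.16 at 3 h and -0.11 at 6 h. It moved the members' median effect to -0.17 at 3 h and -0.14 at 6 h, and the effects near 0 of TEM1 at 3 h (-0.13), AT1G74940 at 6 h (-0.02) and XYL4 at 6 h (-0.10, and -0.02 with median-ratio scaling) changed sign with it. It left 2 members at or below -0.8 and 2 at or above 0.8 at 6 h. With pseudocounts of 0.1 and 0.5, 5 and 5 members were at or above 0.8 at 3 h, and 4 and 2 at or below -0.8 at 6 h. Asking for a 2-fold difference beside the call in the authors' deposited table left 3 lower and 2 higher at 3 h, and 0 and 0 at 6 h. Of the summary values under the alternatives run, 34 stayed within 0.1 in log2, or within 1.5 times for a count, and 12 did not. The 34 include the numbers of members given in this paragraph. For single genes 152 values moved by less than 0.1 and 56 by more. Without ATCG01020 and AT5G63270, chosen after seeing the data, 59 members were left. The cause of these shifts was not tested. Leaving out replicates was not run, because the table has no column per library. No paired analysis was possible because the columns are pools and carry no replicate number.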

Other observations

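The entry ATCG01020 was listed at 0 in 10 of 14 pools, with 60.95 and 116 FPKM in the mock at 0.5 and 1 h and 68.6 and 43.2 FPKM under ABA at 6 and 9 h. AT5G63270 went from an effect of -2.88 at 1 h to 1.83 at 3 h and -0.48 at 6 h. Neither carries a call at any time in the authors' deposited table.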
